A study of Homo sapiens with 6 samples.

Results

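Antisense RNA genes, most of them noncoding, are named after a gene on the opposite strand that they overlap or adjoin. They were examined here together with those named partners in UBE3D-depleted breast cancer cells. The genes were selected on their symbol and on 1 measured value, the mean normalized count over all libraries: the symbol had to end in -AS, with or without a number, and the mean to reach 50. Of 20115 genes in the authors' deposited gene table, 658 carried such a name and 108 reached that mean. The sense partner was the gene named before -AS. It was found for 107 of the 108 antisense genes, as 104 distinct genes, and SDCBP2, the partner of SDCBP2-AS1, was not analysed here. The authors' deposited table of downstream-of-gene (DoG) regions, stretches where transcription runs on past a gene's end, added 45 of its 2014 regions: 21 named after one of these antisense genes and 24 after a partner.

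The cells were MDA-MB-231, a line from a human triple-negative breast cancer, and total RNA depleted of ribosomal RNA was sequenced in 3 control and 3 UBE3D knockdown (KD) libraries. Hairpins against UBE3D were carried by an integrated lentivirus and switched on with doxycycline, in medium with fetal bovine serum and antibiotics shared by both groups. The labels do not say whether the control carried a hairpin or received doxycycline. They give each sample the type Pooled and name no separate cultures, so a p-value here reflects only how far these 6 libraries scatter, which may be technical. The series concerns CPSF73, the endonuclease that cuts pre-mRNA at its 3' end, and its design text names gene expression and readthrough transcripts on UBE3D depletion.

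Antisense transcription is widespread in human cells. Many antisense genes start at the promoter of their partner and run away from it (head to head), others meet the partner at its 3' end (tail to tail), and some lie inside it or around it. Many such RNAs are short-lived in the nucleus, where the RNA exosome degrades them, while a few, such as OIP5-AS1, are abundant and conserved. Pre-mRNA cleavage at a poly(A) signal ends antisense RNAs as well as messenger RNAs, and readthrough past that site can enter the gene on the other strand.

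The values below are those of the authors' deposited gene and DoG tables unless a sentence says that a difference was computed. Each row has 1 log2 fold change of KD over control, its standard error (SE), a mean normalized count and an adjusted p-value from DESeq2. There is no value per library, so whether single libraries of the groups overlap could not be shown, and sequencing depth is unknown. A gene was counted as raised or lowered at an adjusted p under 0.05. The log2 fold changes are shrunken towards 0 and understate large changes of poorly measured genes. UBE3D itself fell by 0.80 ± 0.37 (SE) on the log2 scale, 1.74-fold, with an adjusted p of 0.00632 (DESeq2). Of 4 markers of the mesenchymal state of this line, VIM, CD44, AXL and CAV1, the mean counts were 6616 to 11376, and all but AXL fell. Of 6 luminal or epithelial markers that this line should hold at low levels, ESR1, PGR, CDH1 and GATA3 had means of 22.2 to 80.0, while ERBB2 had 758 and KRT19 had 1388; CDH1 alone of these 6 passed the threshold, raised. Of 5 markers of blood, endothelial and stromal cells, the means ran from 43.7 for PTPRC to 271 for CD68; 1 (LUM) rose and 1 (CD68) fell, and their part in the results below was not tested.

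The shared promoters of 3 pairs are shown first, because among the pairs with both starts on 1 short stretch of DNA they are the 3 whose antisense gene passed the threshold. ATP6V0E2 and its antisense gene both rose. ZNF528-AS1 rose and ZNF528 did not pass the threshold. SAP30L rose while SAP30L-AS1 fell. Each window is the RefSeq promoter of the sense partner on GRCh38.p14, 300 bases on its plus strand, read 5' to 3'. The windows are chr7:149873719-149874018 for ATP6V0E2, chr19:52397599-52397898 for ZNF528 and chr5:154445747-154446046 for SAP30L. Capitals run from the base where the antisense gene starts, reading leftwards on the other strand, to the base where the partner starts, reading rightwards.
ATP6V0E2: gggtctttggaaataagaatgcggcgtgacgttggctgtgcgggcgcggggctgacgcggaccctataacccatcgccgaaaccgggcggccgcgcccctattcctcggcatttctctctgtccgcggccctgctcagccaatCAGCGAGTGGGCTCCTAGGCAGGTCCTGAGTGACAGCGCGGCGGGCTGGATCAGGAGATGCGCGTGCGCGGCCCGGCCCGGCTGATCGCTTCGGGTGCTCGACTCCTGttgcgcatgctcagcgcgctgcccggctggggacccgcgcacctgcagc
ZNF528: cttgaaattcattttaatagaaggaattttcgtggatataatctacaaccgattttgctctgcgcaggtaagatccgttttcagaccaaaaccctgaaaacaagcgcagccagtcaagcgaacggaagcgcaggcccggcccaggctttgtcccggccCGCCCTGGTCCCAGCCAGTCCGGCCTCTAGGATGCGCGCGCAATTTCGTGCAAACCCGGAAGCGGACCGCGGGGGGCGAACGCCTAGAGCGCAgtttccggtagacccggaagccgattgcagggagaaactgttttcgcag
SAP30L: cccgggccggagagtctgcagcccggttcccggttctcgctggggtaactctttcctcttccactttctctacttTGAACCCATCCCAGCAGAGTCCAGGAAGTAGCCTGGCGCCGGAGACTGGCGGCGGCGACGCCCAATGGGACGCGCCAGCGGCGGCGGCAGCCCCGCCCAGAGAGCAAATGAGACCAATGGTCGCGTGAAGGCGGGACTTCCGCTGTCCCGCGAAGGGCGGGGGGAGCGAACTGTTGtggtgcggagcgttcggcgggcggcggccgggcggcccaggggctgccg

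The 2 RefSeq starts lay 107 bases apart at ATP6V0E2, 92 at ZNF528 and 175 at SAP30L. The windows held 68.7%, 56.3% and 69.7% G and C, with 36, 27 and 34 CG dinucleotides. RefSeq promoter windows were found for 75 of the 108 antisense genes and 92 of the 104 partners, with every listed start of a gene used, and in 17 pairs an antisense start fell in the 250 bases before a partner start. Beside the 3 shown, the partner alone rose in 2 of the 17 (ZNF674 and GMDS), it alone fell in 3 (ZEB1, LENG8 and GAS6), and neither gene passed the threshold in 9. Of all genes that reached a mean of 50, 7.19% rose and 11.3% fell, 18.5% either way. The counts among the 17 pairs are small and were not tested. Those 17 windows had a median of 68.7% G and C and 32 CG dinucleotides, against 58.7% and 14 over all 34961 windows of the table. The letters of 4 promoter motifs were searched on both strands, and no motif contains another, though neighbouring matches can share letters. The GC box GGGCGG was in 14 of the 17 windows (82.4%) and in 45.0% of all windows, and CCAAT in 4 (23.5%) and in 34.6%. The ETS core CCGGAA was in 6 (35.3%) and in 17.3%, and TATAAA in 0 and in 11.5%. Over all 159 windows of the partners, these 4 shares were 60.4%, 31.4%, 21.4% and 5.03%, with a median of 63.7% G and C. Over the 98 windows of the antisense genes they were 59.2%, 33.7%, 24.5% and 3.06%, with a median of 64.8% G and C. The SAP30L window held 4 GC boxes and 2 CCAAT boxes, the ATP6V0E2 window 1 of each, and the ZNF528 window 1 GC box and 3 ETS cores. A match of letters is a description of the window, with no binding measured here.

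Of the 108 antisense genes, 11 rose (10.2%), 2 fell (1.85%) and 95 did not pass the threshold. Over all genes of the authors' deposited gene table, a share of 4.62% rose and 7.93% fell. Of the 11658 genes that reached a mean of 50, 7.19% rose and 11.3% fell. Over the 5773 genes with means up to 318, the range of the antisense genes once the 5 most abundant are set aside, 8.28% rose and 7.38% fell. The median log2 fold change of the 108 was 0.10 and 69 lay above 0 (63.9%), against a median of 0.00 and 50.8% for all genes that reached a mean of 50, and 0.03 and 56.3% in the matching range of means. The median was not stable to the minimum: it was 0.04 at a minimum mean of 20, 0.11 at 100 and 0.01 at 200. The changes were small: they ran from -0.44 to 0.68, the quartiles were -0.05 and 0.20, and none reached 1 on the log2 scale. The median SE was 0.17, so that most single members could not be told from no change at this precision.

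**Figure D1:**
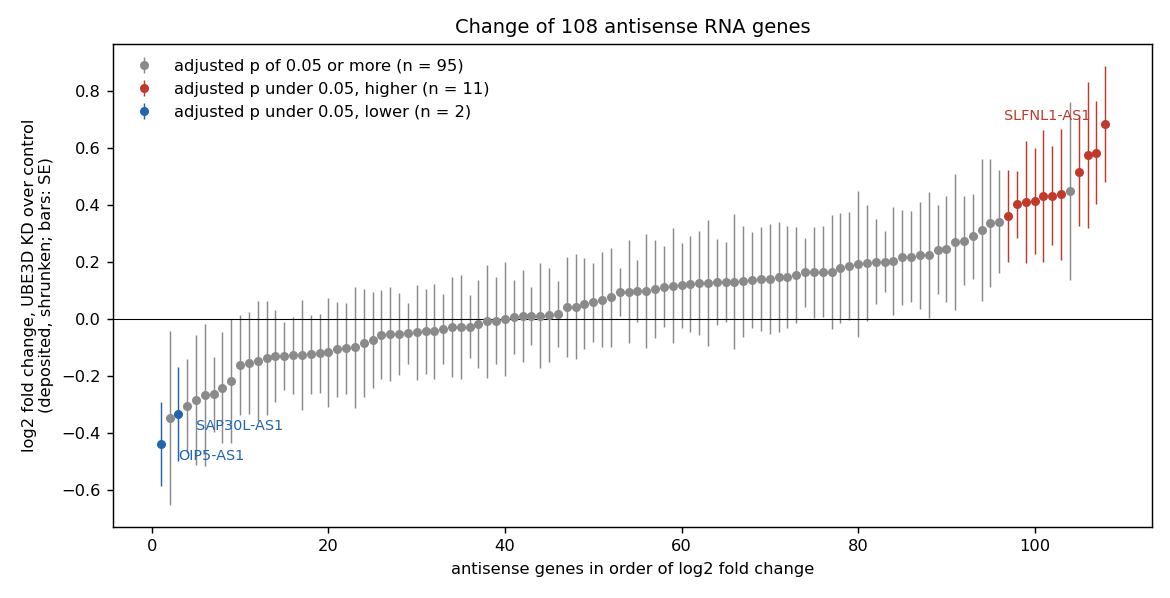
Each of the 108 antisense genes is 1 point, ordered by its deposited log2 fold change of UBE3D KD over control on the vertical axis, with bars of 1 SE. The 11 genes that rose lie between 0.36 and 0.68, the 2 that fell at -0.33 and -0.44, and 1 gene within the upper range, SLC25A25-AS1 at 0.45, did not pass the threshold.

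The 2 members just inside the minimum, PRR7-AS1 and GAS6-AS2, had means of 51.2 and 51.7, and the 2 just outside, TOPORS-AS1 and TPT1-AS1, had 49.6 and 49.2. None of these 4 passed the threshold. The 5 most abundant members did not pass it either. LRRC75A-AS1, a host gene of small nucleolar RNAs, had a mean of 4386 and a log2 fold change of 0.10 ± 0.11 (SE). FGD5-AS1 had a mean of 1344 and a log2 fold change of -0.05 ± 0.11. PAX8-AS1, SVIL-AS1 and PSMA3-AS1 had means of 595, 498 and 461 and log2 fold changes of 0.10, 0.01 and 0.02. The median mean of the 108 was 93.2. Per kilobase of annotated exon, the partner had the higher mean in 66 pairs and the antisense gene in 39 of the 105 with both lengths, with a median ratio of partner to antisense of 1.76.

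Among the genes that rose, the highest change was that of SLFNL1-AS1, with a mean count of 107 and a log2 fold change of 0.68 ± 0.20 (SE), 1.61-fold (DESeq2 adjusted p 0.000456). Its partner SLFNL1, which lies inside the antisense gene, was sparse, with a mean of 33.9 and a log2 fold change of 0.45 ± 0.45 (adjusted p 0.099). MAGI2-AS3 rose by 0.58 ± 0.18 (mean 151, adjusted p 0.000813) while MAGI2, a scaffold protein of cell junctions, had a log2 fold change of 0.07 ± 0.23. THAP9-AS1 rose by 0.52 ± 0.19 (mean 274, adjusted p 0.00395), and THAP9, a protein derived from a DNA transposase, stood at 0.20 ± 0.20. In these 3 pairs the antisense gene passed the threshold and the partner did not, but none of the 3 computed differences between antisense and partner was called.

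AFAP1-AS1, an antisense RNA often measured in tumours, rose by 0.40 ± 0.12 (SE) on the log2 scale, 1.32-fold, from a mean of 283 (DESeq2 adjusted p 0.000639). AFAP1, an adaptor of actin filaments and Src, had a mean of 2127 and a log2 fold change of -0.03 ± 0.11. The computed difference was 0.43 ± 0.16 (adjusted p 0.231 over 628 pairs, normal test). EMC3-AS1 rose by 0.43 ± 0.17 (mean 169) beside 0.02 ± 0.10 for EMC3, a subunit of the membrane protein insertase of the endoplasmic reticulum. ZNF528-AS1 rose by 0.41 ± 0.19 (mean 132), and ZNF528, a zinc finger protein, stood at 0.26 ± 0.13. NUTM2A-AS1 rose by 0.41 ± 0.21 (mean 114) beside 0.02 ± 0.24 for NUTM2A. NUTM2A belongs to a family of near-identical copies among which reads can be split, so that both its values are uncertain.

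In 3 pairs both genes rose. ATP6V0E2, a subunit of the proton pump of acidic organelles, rose by 0.81 ± 0.14 (SE), 1.75-fold (DESeq2 adjusted p 6.3e-09), and ATP6V0E2-AS1 by 0.57 ± 0.26 (adjusted p 0.00993). BDNF, a neurotrophin, rose by 0.63 ± 0.11 (adjusted p 5.9e-08) and BDNF-AS by 0.36 ± 0.16 (adjusted p 0.0219). GATA2, a zinc finger transcription factor, rose by 0.54 ± 0.19 and GATA2-AS1 by 0.44 ± 0.23. The antisense change was the smaller of the 2 in each of the 3 pairs, and none of the 3 differences was called. The antisense SE was the larger in each, and shrinkage pulls less precisely measured changes further towards 0, so the sizes are not directly comparable.

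**Figure D2:**
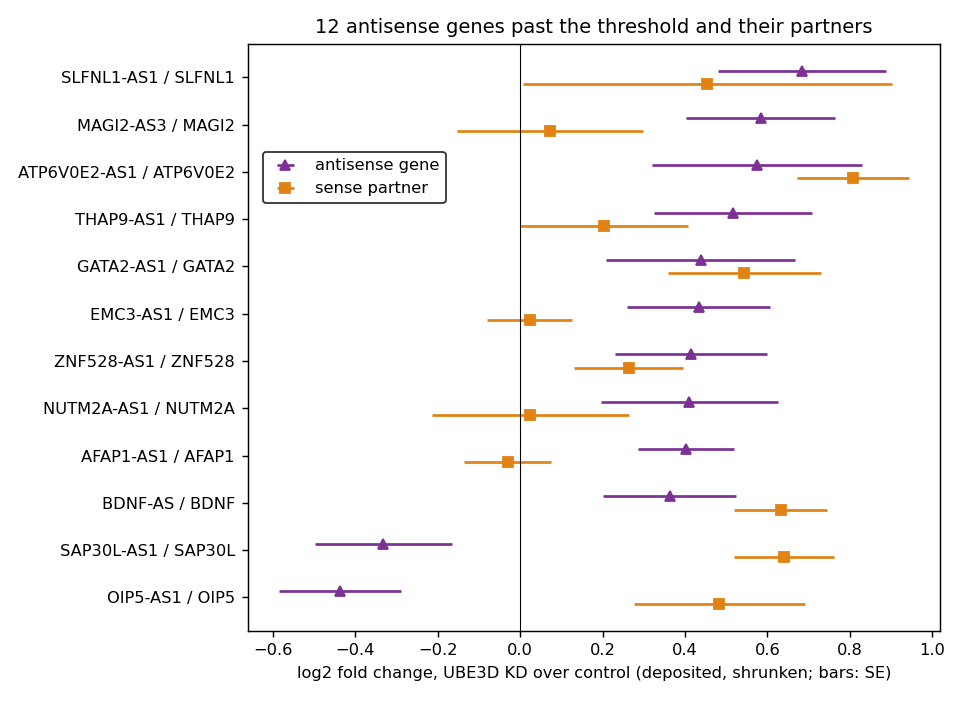
Deposited log2 fold changes of 12 of the 13 antisense genes past the threshold (triangles) and of their sense partners (squares), with bars of 1 SE; 1 raised gene is not drawn. Of the raised antisense genes 3 have a raised partner (ATP6V0E2, GATA2 and BDNF), and both lowered ones, SAP30L-AS1 and OIP5-AS1, have a raised partner.

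Both antisense genes that fell had a partner that rose. OIP5-AS1, a conserved and mostly cytoplasmic long noncoding RNA also known as Cyrano, fell by 0.44 ± 0.15 (SE) on the log2 scale, 1.35-fold, from a mean of 318 (DESeq2 adjusted p 0.00247). OIP5, a Mis18 complex protein that loads the centromeric histone, rose by 0.48 ± 0.21 from a mean of 90.2 (adjusted p 0.0111). The computed difference was -0.92 ± 0.26 (adjusted p 0.0275, normal test over 628 pairs). OIP5-AS1 lies at chr15:41283990-41309737 on the plus strand and OIP5 at chr15:41309268-41332621 on the minus strand (GRCh38, GENCODE 29), tail to tail, sharing 470 exonic bases at their ends. Reads in those bases can be given to the wrong gene unless counting used strand. The library was stranded per the labels' protocols, and no strand setting of the counting is given in the sources used here.

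SAP30L-AS1 fell by 0.33 ± 0.17 (SE), from a mean of 120 (DESeq2 adjusted p 0.0426). SAP30L, a subunit of the Sin3 histone deacetylase complex, rose by 0.64 ± 0.12, 1.56-fold, from a mean of 340 (adjusted p 2.4e-07). The computed difference was -0.97 ± 0.20 (adjusted p 0.000323). SAP30L-AS1 (chr5:154329437-154445850, minus strand) and SAP30L (chr5:154445957-154461054, plus strand) run away from each other and share no exonic base in GENCODE 29.

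Over the partners, 13 rose (12.5%) and 11 fell (10.6%) of 104, with a median log2 fold change of 0.02, beside 7.19% raised and 11.3% lowered of all genes that reached a mean of 50. In 8 pairs the partner rose and the antisense gene did not pass the threshold, in 11 the partner fell and the antisense gene did not pass, and in 75 neither passed. The log2 fold changes had the same sign in 74 of 107 pairs, and across pairs their Pearson correlation was 0.32 and their Spearman correlation 0.38. The 2 values of a pair come from the same 6 libraries, and 73 of the pairs share annotated exonic bases, so these are descriptions. The antisense change was above that of the partner in 67 pairs, and the median difference was 0.08.

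A test of the difference between the 2 changes, adjusted over all 628 antisense pairs of the table whatever their mean, was passed by 8 of them (1.27%), with the antisense gene higher in 0.478% and lower in 0.796%. Of the 107 pairs, 3 passed (2.80%), and in all 3 the antisense gene was the lower; 11 had an unadjusted p under 0.05. The test treats the errors of the 2 genes as independent and uses the shrunken values. The third pair beside OIP5 and SAP30L was FLG. FLG, filaggrin, a structural protein of the epidermis, rose by 1.29 ± 0.13 (SE), from a mean of 1804 (DESeq2 adjusted p 2.6e-23). FLG-AS1 (mean 135), which spans FLG on the other strand, stood at -0.12 ± 0.14, a computed difference of -1.41 ± 0.19 (adjusted p 4.9e-11).

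**Figure D3:**
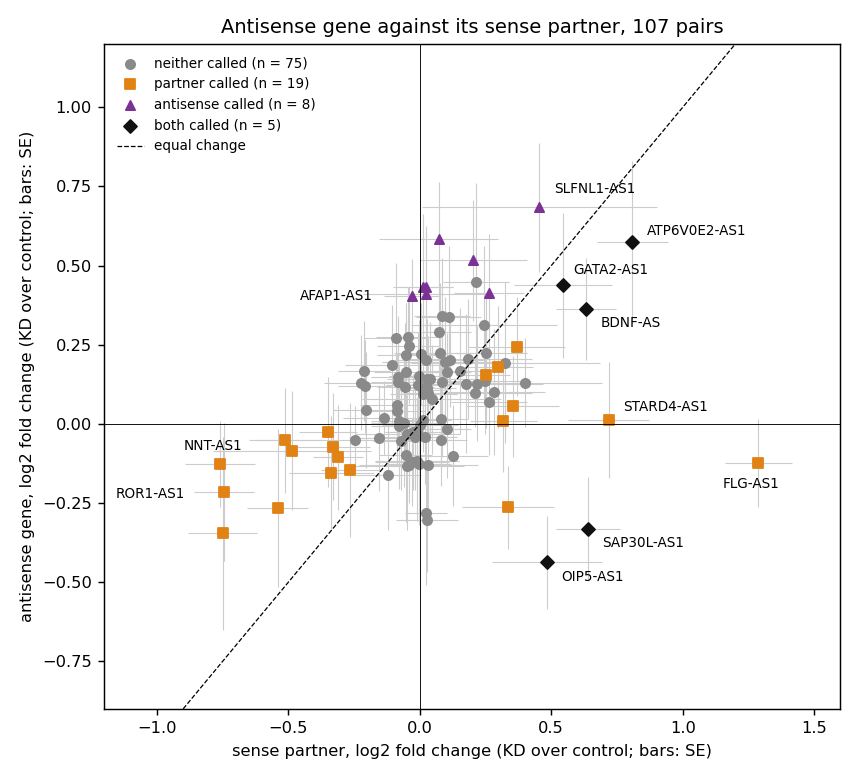
Each of the 107 pairs is 1 point, with the deposited log2 fold change of the sense partner on the horizontal axis and that of the antisense gene on the vertical axis, bars of 1 SE and a dashed line of equal change. Points with a called partner spread from -0.76 to 1.29 along the horizontal axis, while the 3 pairs that differ (FLG, SAP30L and OIP5) lie to the lower right of the line.

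The next pairs by p had differences that were not called. NNT, the mitochondrial transhydrogenase that makes NADPH, fell by 0.76 ± 0.13 (SE) on the log2 scale while NNT-AS1, which overlaps its start, stood at -0.13 ± 0.14 (computed difference 0.63 ± 0.19, adjusted p 0.0623). STARD4, a sterol carrier, rose by 0.72 ± 0.15 beside 0.01 ± 0.18 for STARD4-AS1 (difference adjusted p 0.155). MMP24, a membrane-bound metalloproteinase, rose by 0.34 ± 0.18 beside -0.26 ± 0.13 for MMP24-AS1, which GENCODE classes as protein-coding (difference adjusted p 0.231). ROR1, a receptor for Wnt ligands, fell by 0.74 ± 0.11 beside -0.22 ± 0.22 for ROR1-AS1, and NR2F2, a nuclear receptor, fell by 0.51 ± 0.14 beside -0.05 ± 0.17 for NR2F2-AS1. The difference of TRAM2-AS1 (0.17) from TRAM2 (-0.21) was 0.38 ± 0.19.

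The other partners that fell were led by GSN, the actin-severing protein gelsolin, which fell by 0.75 ± 0.13 (SE) beside -0.35 ± 0.30 for GSN-AS1. PRICKLE2, of planar cell polarity, fell by 0.54 ± 0.12 beside -0.26 ± 0.25 for PRICKLE2-AS3. ZEB1, a repressor of epithelial genes, fell by 0.35 ± 0.11, and VIM, the intermediate filament vimentin, by 0.34 ± 0.16. ZEB1-AS1 stood at -0.03 ± 0.17 and VIM-AS1 at -0.15 ± 0.18. In all 11 pairs with a lowered partner the antisense value was below 0, from -0.35 for GSN-AS1 to -0.03 for ZEB1-AS1, with no antisense gene called. In the 13 pairs with a raised partner the antisense value was above 0 in 9 and below 0 in 4 (FLG, SAP30L, OIP5 and MMP24).

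By their spans in GENCODE 29, which may differ from the annotation used to count, 106 members could be placed: 94 by symbol and 12 through a RefSeq synonym, 10 of which now carry a divergent-transcript name. Of these, 54 were head to head with the partner, 31 tail to tail, 12 lay inside the partner and 9 enclosed it. Head to head, 6 rose and 1 fell, with a median log2 fold change of 0.12. Tail to tail, 2 rose and 1 fell, with a median of 0.10. Inside the partner, 1 rose, the median was -0.08 and 3 of the 12 lay above 0; their partners held 3 of the 11 that fell (GSN, ROR1 and PRICKLE2) and none that rose. Of those enclosing the partner, 2 of 9 rose. All genes that reached a mean of 50 had 7.19% raised and 11.3% lowered; these counts by arrangement are small and were not tested.

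The starts lay within 1000 bases of each other in 39 of the head-to-head pairs, of which 4 antisense genes rose and 1 fell. ATP6V0E2-AS1 is not among these, since its outermost GENCODE start lies further from that of ATP6V0E2. The 32 members that share no exonic base with their partner had 3 that rose, GATA2-AS1 and ZNF528-AS1 among them, and 1 that fell (SAP30L-AS1), with a median log2 fold change of 0.15, against 8, 1 and 0.06 for the 74 that share such bases. GENCODE classes 70 members as antisense, 16 as long intergenic RNA and 12 as processed transcript. It classes 4 as transcribed pseudogenes, EMC3-AS1 and SVIL-AS1 among them, and 2, MMP24-AS1 and NCBP2-AS2, as protein-coding, against their names. Genes outside the naming rule with a mean of at least 50 included 62 other long intergenic RNAs. Of these 62, 10 rose (16.1%) and 7 fell (11.3%), with a median log2 fold change of 0.08. Also outside the rule were 23 antisense genes under other names, of which 4 rose (17.4%) and 2 fell (8.70%), with a median of 0.07. All genes that reached this mean had 7.19% raised and 11.3% lowered, and the counts by group above were not tested.

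**Figure D4:**
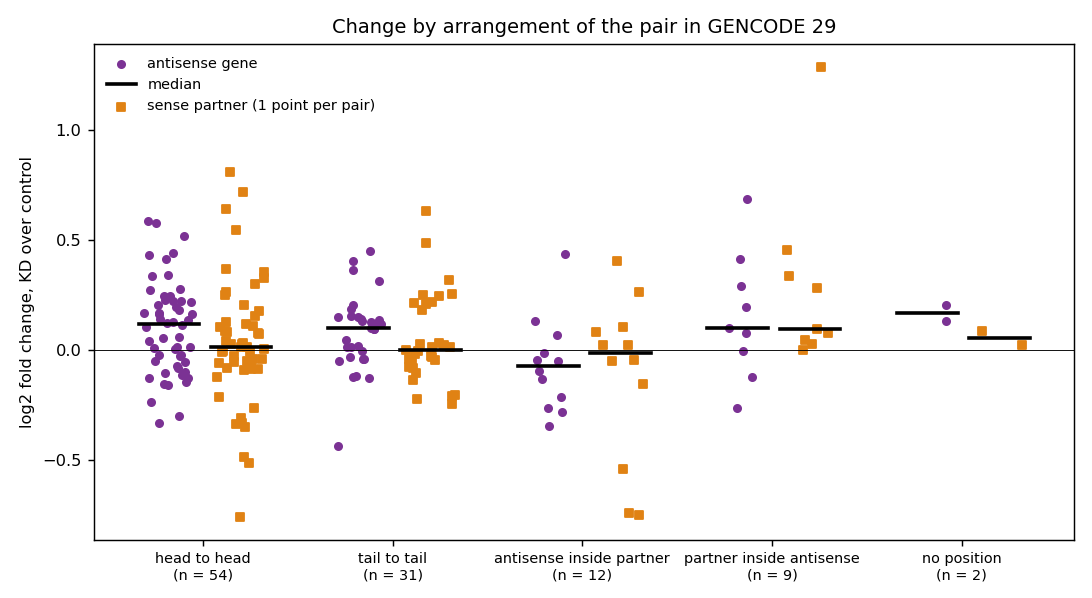
Deposited log2 fold changes of antisense genes (circles) and sense partners (squares, 1 per pair) by the arrangement of the pair in GENCODE 29, with black lines at the medians. The 12 antisense genes inside their partner have a median of -0.08, and the head-to-head and tail-to-tail ones have medians of 0.12 and 0.10.

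Readthrough was measured past 21 of the antisense genes and 24 of the partners. Of these 45 DoG regions, 4 rose and 6 fell (22.2% called), where 28.8% of all DoG regions in the deposited table were called, 12.7% raised and 16.1% lowered. The region past OIP5-AS1 fell most, by 1.15 ± 0.13 (SE) on the log2 scale, 2.22-fold, from a mean normalized count of 811 (DESeq2 adjusted p 4.2e-19). Its computed change was 0.71 ± 0.20 log2 units lower than that of the OIP5-AS1 gene (adjusted p 0.00656, normal test over 1798 regions). It was the only 1 of the 45 that differed from its gene, where 8.68% of the 1798 regions with a gene row did (4.06% with the region higher and 4.62% with it lower). This test treats the errors of region and gene as independent. Genes and DoG regions may also be scaled separately, which would shift all differences between their changes. The next gene of the table on the same strand, NUSAP1, starts 22957 bases past the end of OIP5-AS1 and stood at -0.04 ± 0.11. The nearest gene upstream on that strand, CHP1, ends 2100 bases before it and stood at -0.02 (adjusted p 0.925). A region past the end of OIP5-AS1 would run antisense through OIP5, which rose, and the sources used here do not say whether the DoG counts used strand.

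The region past ACTA2-AS1 rose by 0.86 ± 0.21 (SE), 1.81-fold (DESeq2 adjusted p 1.5e-05), while the gene stood at 0.31 ± 0.25 and its partner ACTA2, smooth muscle actin, at 0.24 ± 0.28. The region past ATP6V0E2-AS1 rose by 0.52 ± 0.22 beside a raised gene (0.57 ± 0.26), so region, antisense gene and partner all passed the threshold at this locus. The regions past ARRDC1-AS1, SDCBP2-AS1 and NNT-AS1 fell by 0.40 ± 0.12, 0.38 ± 0.09 and 0.35 ± 0.18. ARRDC1-AS1, which meets ARRDC1, an arrestin-domain protein, tail to tail, stood at 0.13 ± 0.15 as a gene, and its computed difference of -0.53 ± 0.19 was not called (adjusted p 0.0587). Regions past ACTA2-AS1 and ARRDC1-AS1 would also run antisense through their partners, so the same limit on strand holds for them.

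Past partners, the DoG regions of PSMD5, a proteasome assembly chaperone, and MAPKAPK5, a protein kinase, rose by 0.45 ± 0.23 (SE) and 0.28 ± 0.12. Those of PSMD6, a subunit of the proteasome lid, and NOP14, a ribosome assembly factor, fell by 0.30 ± 0.09 and 0.30 ± 0.15. None of these 4 genes passed the threshold, with log2 fold changes from -0.03 to 0.00 in the gene table. Regions past PSMD6 and NOP14 would run antisense through PSMD6-AS2 and NOP14-AS1, so the limit on strand holds for them too. The gene next to NOP14 on its strand, MFSD10, starts 3074 bases past its end and fell by 0.43 ± 0.17 (adjusted p 0.00831). The DoG change was below the gene change for 17 of the 21 antisense genes (81.0%) and 14 of the 24 partners (58.3%), against 56.8% of all 1798 regions; the medians of the computed difference were -0.20, -0.10 and -0.05, and this was not tested.

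**Figure D5:**
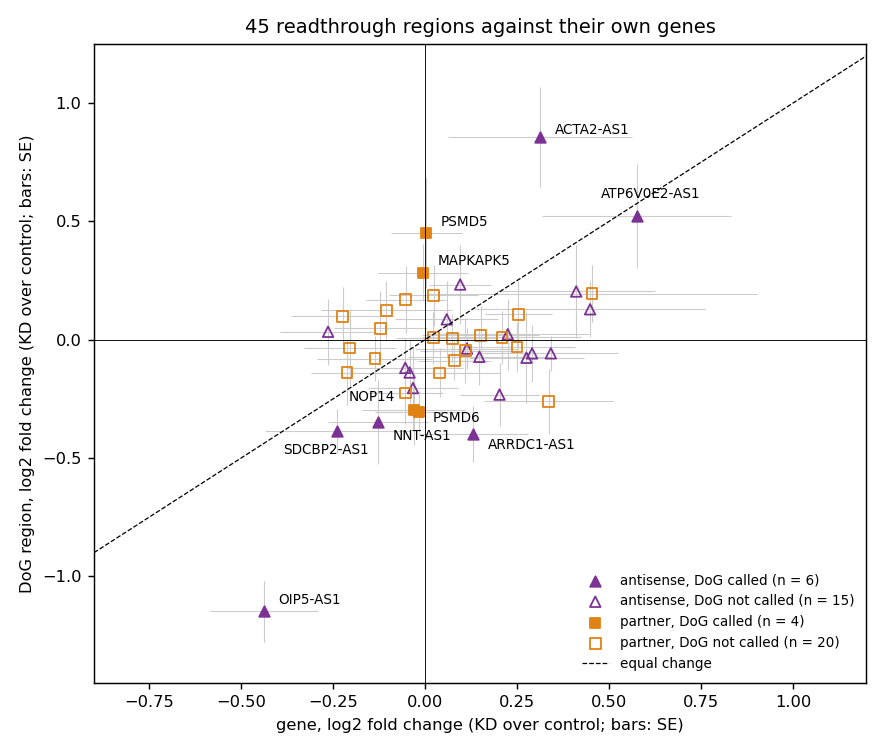
Each of the 45 DoG regions is 1 point, with the deposited log2 fold change of its gene on the horizontal axis and that of the region on the vertical axis, bars of 1 SE and a dashed line of equal change. OIP5-AS1 lies lowest at -1.15 and ACTA2-AS1 highest at 0.86, and filled symbols mark the 10 regions past the threshold.

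In 5 pairs both genes had a DoG region: THUMPD3, HNRNPU, ARRDC1, PSMD6 and MMP24. In none of them did both regions pass the threshold. At ARRDC1 the antisense region fell by 0.40 ± 0.12 (SE) on the log2 scale while the partner region stood at 0.10 ± 0.12, and at PSMD6 the partner region fell by 0.30 ± 0.09 while that of PSMD6-AS2 stood at -0.14 ± 0.14. Both pairs lie tail to tail, so each of these regions would run antisense through the other gene, and the limit on strand holds. At HNRNPU the antisense region stood at -0.23 ± 0.13 and that of the partner at 0.19 ± 0.13, neither past the threshold. For 27 members an annotated gene lay within 10 kb upstream on the same strand, and 19 of these neighbours had a gene row. Of the 19, 4 passed the threshold, all lowered (TRPV2, ATXN7, PFKP and DBN1), and none of the antisense genes behind these 4 was called. Among all genes that reached a mean of 50, 11.3% were lowered and 18.5% called either way, and 7.93% of all genes were lowered. The 19 were not held to that mean (TRPV2 had 42.8), and the count was not tested. Only 2 neighbours had a DoG region of their own, and that of SARDH, upstream of DBH-AS1, fell by 0.35 ± 0.16.

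Lists of related genes were read for context, beside 4.62% raised and 7.93% lowered of all genes, or 7.19% and 11.3% of those that reached a mean of 50. Of 34 widely studied antisense RNAs 24 had a row, 14 of them among the 108, and 3 rose (AFAP1-AS1, BDNF-AS and THAP9-AS1) and 2 fell (OIP5-AS1 and ADAMTS9-AS2); the median log2 fold change was 0.02. The nuclear exosome and its adaptors, which degrade many antisense RNAs, had 21 rows, of which 1 rose, EXOSC1 by 0.45 ± 0.18 (SE, DESeq2 adjusted p 0.00714), and none fell; the median was 0.01. Of 11 genes that edit or sense double-stranded RNA, 3 rose and none fell: the sensors DDX58 by 0.26 ± 0.09, IFIH1 by 0.39 ± 0.18 and TLR3 by 0.57 ± 0.35. ADAR, the editing enzyme, stood at 0.22 ± 0.11 (adjusted p 0.0692), and the list's median was 0.10. The 3 genes named as intronic transcripts did not pass, led by CRHR1-IT1 at 0.36 ± 0.26.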

How the data were processed

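RNA of 3 control and 3 UBE3D KD libraries was compared. Reads were handled with cutadapt 1.8.1, STAR 2.5.2b and DESeq2 on hg38, per the submitters' processing notes. How genes were annotated and counted, with or without strand, and how DoG regions were called is not given in the sources used here. Per the file headers, the authors deposited a mean normalized count per row (used as a signal over all libraries), a log2 fold change with its SE, and for each of these a p-value, raw and adjusted, for 1 comparison. The deposited p-values were used as they stand, adjusted over all rows of each table (Benjamini-Hochberg). The deposited log2 values are shrunken, since the ratio of change to SE was smaller than the p-value's normal quantile in each of 20112 gene rows and 2014 DoG rows compared. The scaling of genes and DoG regions may differ, so their mean counts are not comparable as levels where they are given side by side. Such a difference would also shift the computed differences of their changes. Depth per library is unknown.

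The members, lists and tests were chosen with earlier results of these data known. Text named the 12 largest rises and falls past the threshold with their partners, the 10 pairs of smallest difference p, the 5 members of highest mean, called DoG regions, up to 4 members per list, UBE3D and the 2 members on each side of the minimum mean. 1 pair that this rule takes is not reported here. Genes outside this rule (neighbours, further partners and their DoG regions) were chosen after their values were seen. Each difference was set against the square root of the sum of both squared SEs, with a two-sided normal p and Benjamini-Hochberg adjustment. Positions come from GENCODE 29 on GRCh38, promoters from RefSeq on GRCh38.p14. Python 3.11.15, numpy 2.4.6, pandas 2.3.3, scipy 1.17.1 and matplotlib 3.10.9 were used.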

Additional observations from a re-analysis of the deposited data

How the results depend on the processing

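With an adjusted p under 0.01 in place of 0.05, 6 antisense genes were raised and 1 lowered, 6 partners raised and 7 lowered, 1 pair had both genes called and 2 DoG regions were raised. Under 0.1, 16 antisense genes were raised and 4 lowered, 8 pairs had both genes called and 4 DoG regions differed from their gene. A Wald test on the deposited values, which divides the shrunken change by its SE, called 3 raised antisense genes (SLFNL1-AS1, MAGI2-AS3 and AFAP1-AS1) and 0 lowered, with 5 partners raised and 7 lowered; OIP5-AS1 had an adjusted p of 0.0501. After a shift of all genes by 0.03 to a median of 0, the same test called 3 raised and 0 lowered. The statistic is below the quantile of p in every gene row compared, so this test can call fewer genes by construction. A minimum mean of 20 gave 14 raised and 6 lowered antisense genes, and 200 gave 2 raised and 1 lowered out of fewer genes. The median log2 fold change of 0.10 was 0.04 at a minimum mean of 20 and 0.01 at 200. Pairs with overlapping spans had 9 raised and 1 lowered antisense genes. With regions of merged names added, 5 DoG regions were raised and 7 lowered. Members sharing no exonic base, a subset chosen after seeing the data, had 3 raised, 1 lowered and 1 pair that differed. With errors correlated at 0.3, 6 pairs differed, with NNT, STARD4 and AFAP1 added, and at -0.3 the OIP5 difference was no longer called (adjusted p 0.113). Among pairs with both means of at least 50 the NNT difference was called (adjusted p 0.0217). By a fold limit for counts and the median SE for medians, 23 of the counts and medians under other settings moved and 24 did not. The median SE of 0.17 is larger than the median of 0.10 itself, so its fall to 0.01 was scored as not moved. Stricter thresholds and subsets cannot raise a count and looser thresholds cannot lower it, so this tally is a description and no measure of stability. For single genes, regions and pairs, every setting but the shift of 0.03 kept the same log2 value, so their direction was hardly tested. Of 174 values of single genes, regions and pairs, 131 stayed on their side of the threshold, 36 lost it and 7 gained it.

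No paired analysis was possible because the tables hold 1 comparison with no value per library, and leaving out each replicate was not run for the same reason. Undoing the shrinkage with a normal prior was not run, because the implied prior SD varied from 0.183 to 0.548 over genes of different SE. The SE, not depth, is the only measure of precision here.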

Other observations

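The 550 antisense genes below the minimum mean held 9 that passed the threshold in the authors' deposited gene table, 4 raised (0.727%) and 5 lowered (0.909%), where 1.08% and 3.24% of all 8457 genes below that mean were. PLCE1-AS1 rose most, by 1.77 ± 0.71 (SE) on the log2 scale from a mean normalized count of 17.7 (DESeq2 adjusted p 0.000432), and PLCE1, a phospholipase C, rose by 0.47 ± 0.19. SMC2-AS1, RBM26-AS1 and GAS5-AS1 rose by 1.09 ± 0.54, 0.75 ± 0.37 and 0.70 ± 0.29, with no called change of SMC2, RBM26 or GAS5. ADAMTS9-AS2 fell by 0.67 ± 0.57, and ADAMTS9, a secreted metalloproteinase, fell by 1.79 ± 0.12. APCDD1L-AS1 fell by 0.73 ± 0.47, and APCDD1L by 1.10 ± 0.17. TM4SF19-AS1, GATA6-AS1 and HPN-AS1 fell by 0.98 ± 0.53, 0.50 ± 0.31 and 0.50 ± 0.76. GATA6 and HPN were not called.

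DoG regions named after 1 further antisense gene alone, 17 in number, had none that rose and 3 that fell, where 12.7% of all DoG regions rose and 16.1% fell. Another 3 regions joined an antisense name with others. That of EPB41L4A-AS1 and SNORA13 rose by 0.45 ± 0.24 (SE), and that of ADAMTSL4-AS1 and MCL1 fell by 0.36 ± 0.15. The region of LRRC75A-AS1 and small nucleolar RNAs stood at 0.28 ± 0.24. The region past LIMD1-AS1 fell by 0.79 ± 0.14 (SE) on the log2 scale, from a mean of 422 (DESeq2 adjusted p 7.8e-09), and LIMD1, a scaffold protein of the LIM family, fell by 0.62 (adjusted p 9.7e-06). Those past OGFR-AS1 and JARID2-AS1 fell by 0.59 ± 0.15 and 0.40 ± 0.14, with gene log2 fold changes of 0.00 and 0.05. The region past GAS5-AS1 stood at 0.09 ± 0.14 beside a raised gene. The region past HIF1A-AS2, with the highest mean of these regions at 5580, stood at -0.23 ± 0.14. The HIF1A-AS2 gene had a mean of 39.9 and stood at 0.15 ± 0.20. HIF1A, on the other strand, had a mean of 2920 and stood at -0.25 ± 0.15. The means of genes and regions may be scaled separately and are not comparable as levels. A region past the end of HIF1A-AS2 would run antisense through HIF1A. Reads of HIF1A may be counted in it, since the strand setting of the DoG counts is not given.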
